A study of Mus musculus with 2 samples.

Results

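Mir139 is the mouse gene for the microRNA miR-139, a short regulatory RNA of animal cells. It is 1 of 2202 miRNA genes in the count tables, found by its name in the GENCODE M21 annotation. The tissue was adrenal gland from B6CASTF1/J females at the age of 4 days. This strain is the first-generation hybrid of C57BL/6J and CAST/EiJ, and no treatment is stated. The 2 libraries form 1 group. The labels number them as biological replicates of different females, under a shared donor identifier. Small RNA was sequenced, and 4960537 and 4506482 reads were assigned to miRNA genes in replicates 1 and 2. The design holds no comparison between conditions, so the data give the level of Mir139, its place in the miRNA pool and its difference between these 2 libraries.

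A miRNA hairpin is cut from a longer transcript and then trimmed to a pair of strands, named 5p and 3p after their side of the hairpin. The strand that is kept guides Argonaute to messenger RNAs that pair with its seed, bases 2 to 8, and lowers their output. Mir139 lies in an intron of Pde2a, the gene of a phosphodiesterase that cGMP activates and that breaks down cAMP. In the adrenal cortex this enzyme is known for linking atrial natriuretic peptide to lower cAMP and less aldosterone. miR-139-5p has mainly been studied as a miRNA that is lost in tumours, with Rock2 and Cxcr4 among its reported targets, and it is often listed with miRNAs of endothelial cells.

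The hairpin and its mature strands are shown because the tables count the hairpin as a whole and the seeds are compared with those of other miRNAs. The sequences are those of RefSeq for GRCm38.p6, the same build as mm10, 5′ to 3′. Capitals mark the mature strands in the hairpin and the seed in each mature strand.
Mir139 hairpin: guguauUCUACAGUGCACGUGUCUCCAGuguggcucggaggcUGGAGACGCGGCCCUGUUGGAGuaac
miR-139-5p: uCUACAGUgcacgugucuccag
miR-139-3p: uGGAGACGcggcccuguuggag

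The hairpin has 68 bases at chr7:101475376-101475443 on the plus strand, and RefSeq and GENCODE give the same sequence for it. Its 5p strand covers bases 7 to 28 of the hairpin and its 3p strand bases 43 to 64, each 22 bases long with 14 bases between them. In the structure predicted by RNAfold, 19 bases of the 5p strand paired with bases of the 3p strand, at a folding energy of -35.6 kcal per mol. The hairpin was 58.8% G or C, against a median of 50% over the detected hairpins. An mRNA site that pairs with the 5p seed followed by an adenosine would read ACUGUAGa, where capitals pair with the seed.

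Neither seed of Mir139 was found in another listed miRNA. This was common, since 84.5% of the 1398 distinct seeds in the RefSeq table belonged to 1 gene. Among the 1738 mature sequences of the RefSeq table, 0 others had the seed of either strand, and 0 had it shifted by 1 base. Bases 2 to 7 of the 3p strand were shared with 1 other, that of Mir6397, which had 0 reads in both libraries (chosen after its values were seen). In ungapped alignment the closest mature sequence of another gene still differed at 7 bases from either strand. The endothelial list that holds Mir139 is thus not 1 seed family, although the strands shown for Mir221 and Mir222 share their seed. Below is 1 mature strand each of Mir126a, Mir221 and Mir222, again with the seed in capitals.
miR-126a-3p: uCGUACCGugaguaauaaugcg
miR-221-3p: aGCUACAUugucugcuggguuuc
miR-222-3p: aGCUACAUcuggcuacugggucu

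The label of Mir139 as an intronic miRNA of Pde2a held in the annotation. Pde2a has 12 annotated transcripts, and 10 of them span Mir139 on the same strand, including all 4 that are labelled protein-coding. In 0 of the 10 does an exon overlap the hairpin. In the protein-coding transcripts Mir139 lies in intron 2, which is 29902 bases long, 23907 bases after the upstream exon and 5927 bases before the downstream exon. The start sites of the spanning transcripts lie between 14432 and 53685 bases upstream of it. Gm45837, a second protein-coding model on this strand, spans the locus as well. The nearest other miRNA gene in the tables, Gm22655, is 405740 bases away, so Mir139 belongs to no miRNA cluster by the distance of 50 kb set for neighbours.

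**Figure D1:**
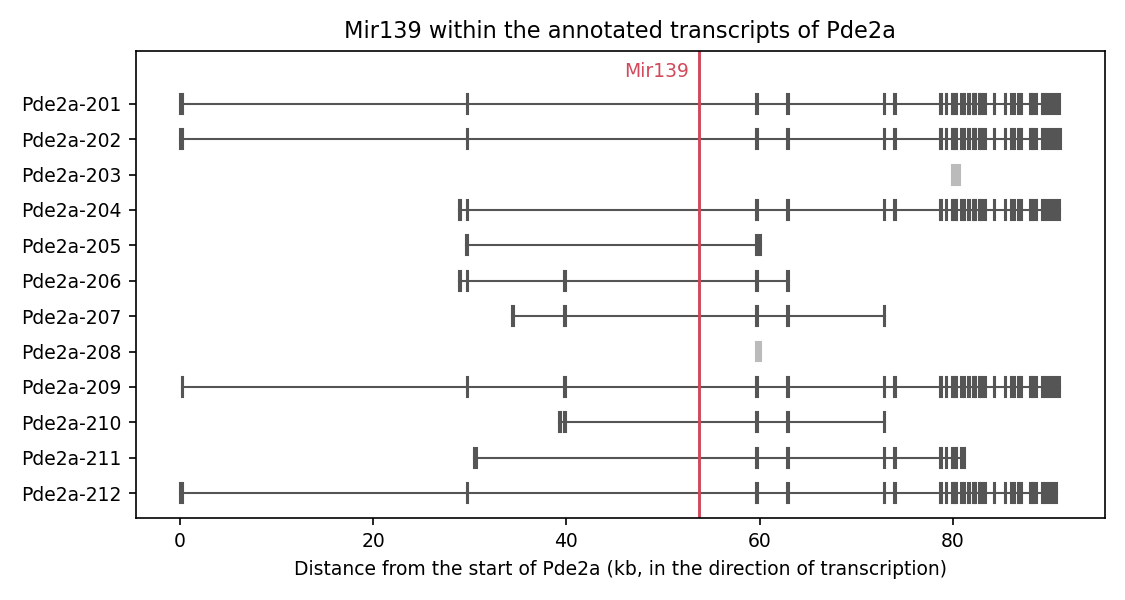
Annotated transcripts of Pde2a (GENCODE M21), with distance from the start of the gene in kb on the horizontal axis, exons as boxes (short exons widened to stay visible) and introns as lines; dark transcripts span Mir139 (red line) and grey ones do not. The red line crosses introns of 10 transcripts and an exon of none.

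By reads that map to a single place, Mir139 was among the most abundant miRNAs of the neonatal adrenal gland. It had 70408 reads in replicate 1 and 90044 in replicate 2. As counts per 1e+06 miRNA reads (CPM), this was 14194 in replicate 1 and 19981 in replicate 2, with a mean of 17087 ± 4092 (SD, n = 2). Replicate 2 was thus the higher library by raw reads and by CPM.

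As a share of the reads assigned to miRNA genes, Mir139 took 1.42% in replicate 1, with a 95% Wilson interval of 1.409 to 1.43, and 2.00% in replicate 2, with one from 1.985 to 2.011. These intervals cover counting error only and do not overlap. The counting error of its reads was 0.377% and 0.333% of the value, whereas the SD between the libraries was 23.9% of the mean, so counting error was small beside the spread. Of all sequenced reads, including unmapped ones, Mir139 took 0.602% and 0.798%.

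No read lay on the strand opposite to Mir139 in either library, which allows up to 0.00426% and 0.00333% of its own reads. The same held for 334 of the 377 detected genes, those with 10 or more reads in each library. Only reads that map to a single place were counted for a gene. No run of 18 bases of its hairpin was found in another hairpin or in any transcript of another gene in GENCODE M21, while 96 of the 377 detected genes share such a run with a hairpin elsewhere. A copy of the hairpin outside annotated transcripts was not searched for. A base that differs in the CAST/EiJ allele could still lower its count in both libraries. The count does not separate the 5p strand from the 3p strand.

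By mean CPM, Mir139 took place 18 of 2202 genes, with place 19 in replicate 1 and 17 in replicate 2. Reads at several places, 25.9% and 27.8% of all reads in replicates 1 and 2, counted for no gene. Genes with copies elsewhere can thus be undercounted, so each place of Mir139 is one among singly mapped reads. A miRNA read covers a mature strand whole, so reads were compared between genes without division by length. The 17 genes above it held 63.8% and 64.5% of the reads in replicates 1 and 2. Its level was 114 times the median of the detected genes, 150 CPM.

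The plot of levels against place shows Mir139 at the shoulder of the curve, before levels fall away.

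**Figure D2:**
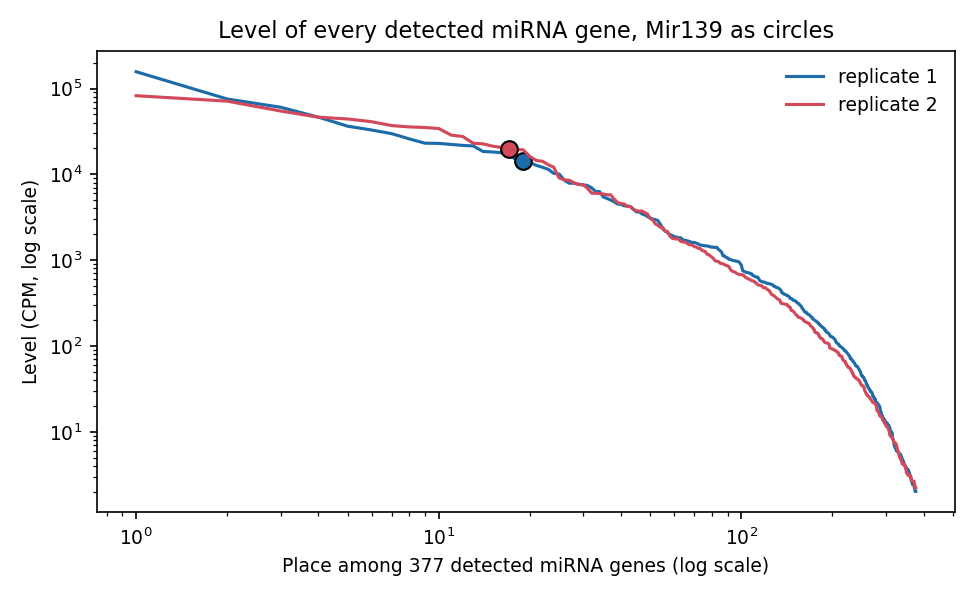
Level in CPM (log scale) of the 377 detected miRNA genes against their place in each library (log scale), with lines for the libraries and circles for Mir139. Mir139 stands at place 19 with 14194 CPM in replicate 1 and at place 17 with 19981 CPM in replicate 2.

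The order around Mir139 was not resolved by 2 libraries. The range between its libraries overlapped that of 10 other genes, which held places 13 to 23. The 3 genes above it were Mirlet7b (19270 CPM ± 1937, SD, n = 2), Mir21a, a miRNA induced in many growth and stress settings (18888 CPM ± 591, SD, n = 2), and Mir127, an imprinted miRNA of the Dlk1-Dio3 region (18175 CPM ± 6332, SD, n = 2). The 3 below it were Mir378a (16092 CPM ± 4758, SD, n = 2), Mir99b (14679 CPM ± 275, SD, n = 2) and Mir22 (13231 CPM ± 12771, SD, n = 2). Each of these 6 had a range that overlapped that of Mir139. Mirlet7b and Mir378a have hairpins that share a run with others, so their own places are uncertain.

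The genes with the pattern most like that of Mir139 were Mir378a, Mir127, Mir335, Mirlet7b and Mir99a. Likeness was the Euclidean distance in log2(CPM + 1) over the 2 libraries, which ran from 0.16 for Mir378a to 0.37 for Mir99a. Mir378a, an intronic miRNA of Ppargc1b, had 12728 CPM in replicate 1 and 19456 in replicate 2. Mir335, in an intron of the imprinted gene Mest, had 16932 and 23008 CPM. Both were the higher in replicate 2 like Mir139, which their choice by likeness over the same 2 libraries favours. With 2 libraries this measure reflects level and 1 difference alone.

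Many miRNAs are carried in introns, and Mir139 was among the highest of them. By the annotation, 733 of the 2202 genes lie within an intron of a protein-coding gene on the same strand, and 133 of them were detected. The median level of the detected ones was 86.5 CPM, against 185 CPM for the 244 other detected genes. Mir139 took place 6 of the 133, at 198 times their median. The 5 above it were Mirlet7g in Wdr82 (78935 CPM ± 4948, SD, n = 2), Mir23b in 2010111I01Rik (38496 CPM ± 7997, SD, n = 2), Mir10b in Hoxd3 and Hoxd4 (28549 CPM ± 10090.3, SD, n = 2), Mir26b in Ctdsp1 (25835 CPM ± 3920, SD, n = 2) and Mir335 in Mest (19970.0 CPM ± 4296, SD, n = 2). Intronic genes with copies elsewhere can be undercounted, so place 6 too is one among singly mapped reads. Among the 101 detected intronic genes whose hairpin shares no run, Mir139 took place 4. It made up 4.67% of the reads of all intronic genes in replicate 1 and 5.66% in replicate 2.

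Mir139 was higher in replicate 2 by more than counting error. After TMM scaling (an edgeR method that sets the libraries level over most genes), it had 13563 CPM in replicate 1 and 20909 in replicate 2. The log2 ratio of replicate 2 over replicate 1 was 0.62 (95% exact interval 0.61 to 0.64), or 1.54-fold. An exact two-sided binomial test of its reads, adjusted by Benjamini-Hochberg over the 377 detected genes, called it, with a p-value too small for floating point to hold. That test compares these 2 libraries, not conditions, and takes counting error as the only error. It called 257 genes, 68.2% of those tested, and 35.5% were called higher in replicate 2, so a call by itself was common. By direction, 134 had calls towards replicate 2 and 123 towards replicate 1, a balance that depended on the scaling. These counts were 112 and 144 under total reads, 125 and 131 under median-of-ratios factors, and 177 and 90 under upper-quartile scaling.

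The difference at Mir139 is that of 1 library against 1 library and has no replicate check. In the exact test of edgeR, where either library formed a group of its own and the dispersion came from the same pair, its p was 0.491 and its adjusted p was 1. That test called 7 genes, 1.86% of the 377. With a dispersion taken from the difference it tests, it describes how the ratio sits among those of the other genes and does not show that the libraries were alike at Mir139. The log2 ratios of all detected genes had an SD of 0.97. A ratio further towards replicate 2 was held by 54 genes (14.3%). Scaling shifts the log2 ratio of every gene by the same amount, so it cannot change this count. A larger ratio in either direction was held by 130 genes (34.5%) under TMM, by 163 under total reads and by 95 under upper-quartile scaling.

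Most miRNA genes of a level near that of Mir139 had calls in the same direction. Of the 18 other genes within 2-fold of its mean level, 17 were called higher in replicate 2 and 1, Mir22, higher in replicate 1. Over all 377 genes tested, 35.5% and 32.6% were called in those directions. Under scaling by total reads the counts were 16 and 2. The median log2 ratio of these 18 was 0.46, ranging from -2.28 at Mir22 to 1.17 at Mir487b (the latter chosen after its values were seen), and Mir139 lay 0.17 above that median. For the 25 most abundant genes the median was 0.44, with 23 called higher in replicate 2 and 2 in replicate 1. For those at places 51 to 100 the median was -0.05, with 21 and 26 called in those directions. Of the 177 genes at places 201 to 377, 101 had no call, so the shares over all genes are not those of abundant genes. Over all 377 genes the median was 0.04, with Mir139 0.58 above it.

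**Figure D3:**
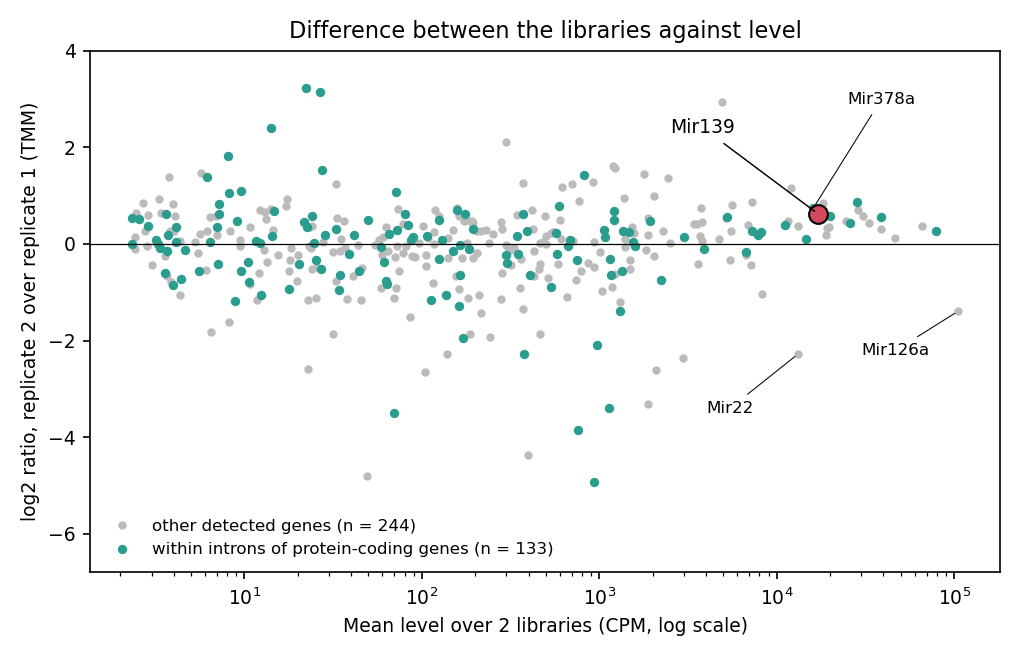
Log2 ratio of replicate 2 over replicate 1 (TMM-scaled reads) against mean level in CPM (log scale) for the detected genes, with intronic miRNAs of protein-coding genes in green, the others in grey and Mir139 as the large red point. Mir139, at 0.62, sits among the abundant genes on the right, most of which lie above 0, while Mir22 and Mir126a lie below.

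The direction at Mir139 was the same under each scaling tried. Scaling by total miRNA reads gave a log2 ratio of 0.49 and upper-quartile scaling 0.84, with the other settings between them. These scalings moved the median of all genes along with it, by -0.13 from TMM to total reads. A scaling shifts every gene by the same amount. The distance of Mir139 from the median of the same 377 genes, 0.58, is therefore fixed across the 4 scalings and does not test them.

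**Figure D4:**
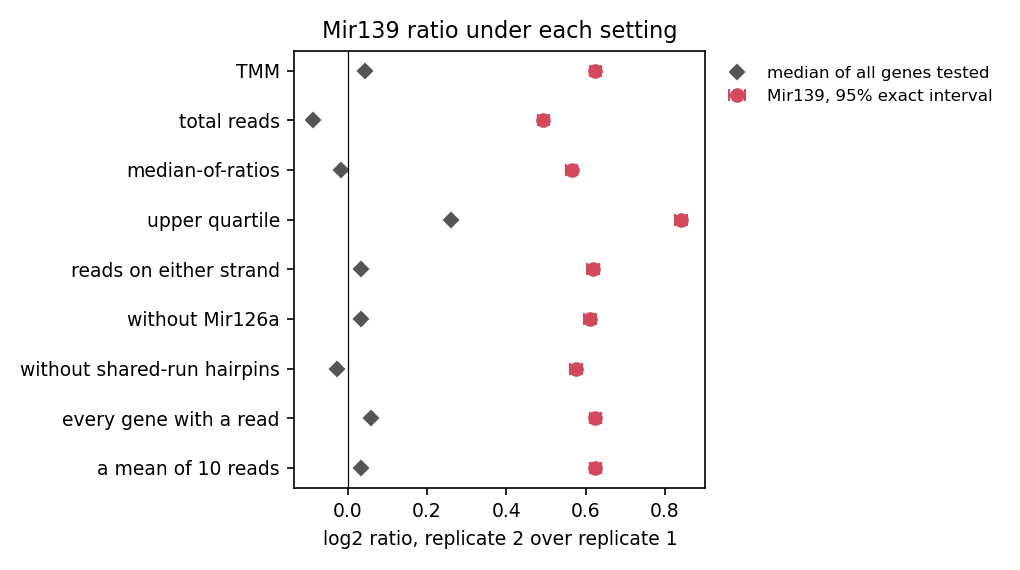
Log2 ratio of Mir139 between the libraries (red circles, with 95% exact intervals) and median log2 ratio of all genes tested (grey diamonds) under each scaling, strand choice and gene filter. The circles lie between 0.49 and 0.84, and the diamonds shift with them across the scalings.

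The intronic miRNAs as a class were split between the directions. Of the 133 detected, 49 were called higher in replicate 2 (36.8%, against 35.5% of all genes tested), 38 higher in replicate 1 and 46 had no call. Under scaling by total reads, 41 were higher in replicate 2 and 47 in replicate 1. Their median log2 ratio was 0.08, against 0.02 for the other detected genes. A ratio above that of Mir139 was held by 18 of them.

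The endothelial list split between the libraries. The list held Mir126a, an endothelial miRNA within Egfl7, its antisense partner Mir126b, Mir139, and the neighbours Mir221 and Mir222. Mir126a had 156832 CPM in replicate 1 and 54709 in replicate 2, the reverse of the order at Mir139. Mir221 had 249 and 312 CPM, and Mir222 had 80.8 and 60.8. Mir126b had 20 and 6 reads and was not detected by the minimum.

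In the exact binomial test, 2 of the 4 detected members had calls towards replicate 2 and the other 2 towards replicate 1, with 35.5% and 32.6% of all tested genes called in those directions. The log2 ratio was 0.62 at Mir139, 0.45 at Mir221 (adjusted p 1.77e-15), -0.28 at Mir222 (adjusted p 0.0204) and -1.39 at Mir126a. These directions were the same under total reads. None of the 4 passed edgeR's exact test.

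**Figure D5:**
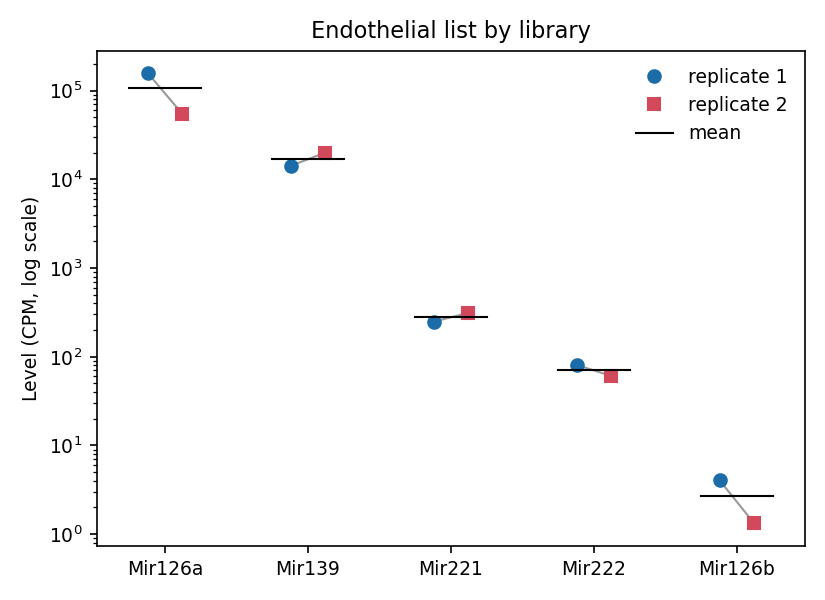
Level in CPM (log scale) of the 5 genes of the endothelial list in replicate 1 (blue circles) and replicate 2 (red squares), with the mean as a black bar. Mir139 has 14194 CPM in replicate 1 and 19981 in replicate 2, while Mir126a has 156832 and 54709.

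The ratio between members of the list needs no scaling. Mir126a had 11.0 reads for each read of Mir139 in replicate 1 and 2.74 in replicate 2. Put as a share of the reads of this pair, Mir139 held 8.30% (95% Wilson interval 8.24 to 8.36) and 26.8% (26.6 to 26.9). The ratio of Mir139 to Mir126a thus changed 4.04-fold between the libraries, that to Mir222 1.87-fold and that to Mir221 1.12-fold. Mir139 had 57.0 reads for each read of Mir221 in replicate 1 and 64.1 in replicate 2. Among these 3 pairs, Mir139 and Mir221 differed least in their ratio between the libraries, and Mir139 and Mir126a differed most.

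Mir139 was the second member of the list by reads. The list took 17.1% and 7.51% of the miRNA reads, and Mir139 made up 8.28% of the list in replicate 1 and 26.6% in replicate 2. With Mir126a left out of the list, it made up 97.7% and 98.2%. In bulk tissue, fewer cells of a type and less RNA per cell cannot be told apart.

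Markers of other cell types also differed between the libraries in which Mir139 differed. The epithelial list (7 of 7 genes detected) took 0.471% of the reads in replicate 1 and 0.116% in replicate 2. Of its genes, 6 were called higher in replicate 1 and 1 in replicate 2. Over all 377 genes tested, 32.6% and 35.5% were called in those directions. The striated muscle list (3 of 5 detected) took 0.125% and 0.869%, with Mir206 at 6146 and 38876 of its 6197 and 39142 reads. Its 3 detected genes were called higher in replicate 2. The erythroid list (3 of 3) took 0.106% and 0.0287%, with 2 genes called higher in replicate 1 and 1 in replicate 2. The neuroendocrine list, with Mir375 and other miRNAs known from chromaffin-like and neuronal cells, took 4.05% and 4.59%. Mir375 had 180462 and 184879 of the 200876 and 207049 reads of this list. Of its 4 genes, 2 were called higher in replicate 2, 1 higher in replicate 1 and 1 had no call. The mesenchymal and smooth muscle list (5 of 6 detected) took 3.05% and 3.77%. Its sum follows Mir143, its most abundant member, whereas 3 of its 5 detected genes were called higher in replicate 1 and 2 in replicate 2, with a median log2 ratio of -0.51. The leukocyte list (4 of 5 names matched, all 4 detected) took 0.126% and 0.155%, with 3 genes called higher in replicate 2 and 1 in replicate 1. Its name Mir146a matched no gene name. A gene named Mir146 had 3558 and 3078 reads and no call, and is not in these shares. The liver list of 1 gene, called higher in replicate 2, took 0.145% and 0.264%. The kidney list (4 of 4) took 0.0419% and 0.0179%, with 3 genes called higher in replicate 1 and 1 without a call. No listed gene in the tables was at 0 reads in both libraries. Their part in the difference at Mir139 was not tested.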

How the data were processed

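Small RNA libraries of 2 adrenal samples were analysed. The authors deposited whole-number read counts per miRNA gene, unnormalized, on mm10 with GENCODE M21 per the file headers. Which aligner and counter were used is not given in the sources at hand. The 3 count columns were read from their values as either, annotated and opposite strand, and the annotated strand was used. The 4 leading rows that name no gene stayed out of library sizes. Unmapped reads were 25.8% and 26.1% of all reads, reads at several places 25.9% and 27.8%, and reads outside miRNA genes 5.96% and 6.24%, in replicates 1 and 2. All 2202 gene identifiers were found in GENCODE M21, and 1032 symbols in the RefSeq miRNA table.

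Levels are CPM, with 95% Wilson intervals for shares. Without molecular identifiers, PCR copies of 1 molecule count as several reads, so intervals and limits cover counting error only. A count of 0 was given a limit of 3 reads. The ratio between libraries used TMM factors (1.05 and 0.956, edgeR 4.0.16) and an exact two-sided binomial test (scipy 1.17.1), with calls at an adjusted p under 0.05. The test was checked on simulated counts with counting error only and unscaled library sizes. That check cannot show how it behaves with the larger spread between these libraries. The quasi-likelihood test of edgeR was not used, since 1 group of 2 libraries leaves no comparison for it. The spread may be technical as far as the labels tell. Median-of-ratios factors came from DESeq2 1.42.0 and folding from RNAfold 2.7.2. Shared runs are of 18 bases.

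Genes named were Mir139, the endothelial list, the 3 genes on each side by mean CPM, the 5 nearest in pattern, the 5 highest intronic genes, and relatives by seed or position. The most abundant members of some marker lists were named as well. The gene and lists were chosen with earlier results of these data known.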

Additional observations from a re-analysis of the deposited data

How the results depend on the processing

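Mir139 kept its direction in each of the 9 alternatives tried for its ratio. Those that changed only the minimum of reads or the test leave the ratio at 0.62, so they could not turn its direction. In 8 of the 9 Mir139 kept its call, each by the binomial test with counting error as the only error. The exception was edgeR's exact test (log2 ratio 0.62, adjusted p 1), which called 7 genes in place of 257. The 6 other alternatives tried for that number, of scaling, read filter or strand, gave 237 to 267, of which the test over every gene with a read called 264 of 831. Tests that also leave genes out called 255 of 376 genes without Mir126a and 195 of 281 without hairpins that share runs. The mean level of Mir139 was 33711 CPM without the 10 most abundant genes in the total and 25413 CPM without hairpins that share runs, both from the smaller totals. Its place was 15 by reads per hairpin base and 12 without hairpins that share runs, a step that only takes genes out of the order. Leaving out each replicate gave 14194 to 19981 CPM and places 17 to 19. The endothelial list took a mean of 12.3% of the reads, from 7.51% to 17.1% with a replicate left out. It took 2.06% with reads on either strand, a column in which Mir126a keeps 11 and 5 reads, and 1.94% without Mir126a. Mir126a overlaps Mir126b on the opposite strand. In the either-strand column 1018277 and 497237 reads were set aside as ambiguous, against 0 and 0 on the annotated strand, so the 2.06% follows from how reads were counted. No paired analysis was possible because the series has 1 group. A ratio between the libraries cannot be given with a replicate left out. The counting error of the reads of Mir139 was 0.377% and 0.333% of its value, against 23.9% for the SD between the libraries.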

Other observations

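A list of 47 miRNA genes known to lie in introns of protein-coding genes was set beside Mir139. Of these, 46 were in the tables, 36 were intronic by the annotation and 43 were detected. Mir139 took place 5 by mean CPM among the 43. In the exact binomial test 16 had calls towards replicate 2, 18 towards replicate 1 and 9 none, with 35.5% and 32.6% of all tested genes called in those directions. The median log2 ratio of the list was -0.04, against 0.04 over all 377 detected genes. Its ends were Mir301, in an intron of Ska2, at -3.40 and Mir499, within the myosin gene Myh7b, at 3.23 (both chosen after their values were seen).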
